A study of Mus musculus with 18 samples.

Results

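mmu-miR-126a, mmu-miR-143 and mmu-miR-145a are microRNAs (miRNAs) known from blood vessels, and both strands of each hairpin were followed here through mouse knee cartilage after joint injury. The members were chosen by name, and they are mmu-miR-126a-5p, mmu-miR-126a-3p, mmu-miR-143-5p, mmu-miR-143-3p, mmu-miR-145a-5p and mmu-miR-145a-3p. These are 6 of the 1412 mature miRNAs in the table. All 6 were among the 428 miRNAs that passed the filter on low counts and were tested. The 2 arms of miR-126a were set against the 4 arms of miR-143 and miR-145a.

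Small RNA was sequenced from femoral condyle cartilage of male C57bl6 mice aged 12 weeks, in 18 libraries of pooled cartilage. Injured right knees had received a single load of 12 N, which ruptures the anterior cruciate ligament (ACL), and were collected at day 1 (n = 3) or day 7 (n = 3). The uninjured left knees of injured mice gave the contralateral groups at day 1 (n = 3) and day 7 (n = 3), and mice that were never loaded gave the naïve group (n = 6). No group carried a genetic change. Contralateral knees belonged to the same mice as the injured knees, so they are controls that share an injured animal, and the left and right knees of naïve mice were pooled apart. There were 6 naïve mice in pools of 2, so the 6 naïve libraries can be 3 pools sampled on both sides, and every test that counts them as 6 rests on their independence. The study's scheme gives pools of 2 mice at day 1 and 4 mice at day 7, while the series description gives 4 mice for every sample. Totals ran from 758388 to 4088852 counts per library. The samples are labelled as chondrocytes, yet the summed level of 8 skeletal muscle miRNAs ran from 55120 to 274875 CPM (counts scaled to 1000000 per library after TMM correction for library composition), against 5029 to 10499 CPM for 4 cartilage miRNAs (miR-140 and miR-455). Every library thus held more reads of muscle markers than of cartilage markers, chiefly through miR-1a-3p (mean 141427 CPM). The next muscle miRNA, miR-206-3p, had a mean of 2852 CPM, below the 4820 CPM of miR-140-5p. In such bulk samples, fewer cells of a type and less RNA per cell cannot be told apart.

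miRNAs are short RNAs that guide a silencing complex to messenger RNAs, chiefly through pairing of the bases near the 5′ end, called the seed. miR-126 is made from an intron of Egfl7, a gene of endothelial cells, and is known for its part in vessel integrity and the response to vascular growth factors. miR-143 and miR-145 are made from one primary transcript, are abundant in smooth muscle, and are known for keeping smooth muscle cells in their contractile state. Other mesenchymal cells, such as fibroblasts, also make miR-143 and miR-145. Articular cartilage itself has no blood vessels.

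Mature sequences of miR-126a and miR-126b from RefSeq (build GRCm38.p6) are shown, with the seed (bases 2 to 8) in capitals. The RefSeq table used held no mature entry for miR-126a-5p.
miR-126a-3p: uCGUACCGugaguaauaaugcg
miR-126b-5p: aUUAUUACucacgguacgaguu
miR-126b-3p: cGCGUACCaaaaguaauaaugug
miR-126a-3p lies on the plus strand at chr2:26591402-26591423. The other 2 lie on the minus strand, miR-126b-5p at chr2:26591399-26591420 and miR-126b-3p at chr2:26591363-26591385. Of the 22 bases of miR-126b-5p, 19 are complementary to miR-126a-3p. All 23 bases of miR-126b-3p are complementary to bases 7 to 29 of the Mir126a hairpin. Among the 1738 mature miRNA entries of the RefSeq table, 1 carried the seed of miR-126a-3p, which is miR-126a-3p itself.

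The Mir126a hairpin (chr2:26591357-26591429, plus strand) sits inside Egfl7 (chr2:26580014-26593120, plus strand) in the GRCm38 annotation. Of the 9 Egfl7 transcripts that span it, 8 place it in an intron and 1 places it in an exon. The antisense hairpin Mir126b (chr2:26591363-26591420, minus strand) lies within the same stretch. This matters for the minor arm of miR-126a. The count of miR-126b-3p exceeded that of miR-126a-5p by 0 to 6 reads in the 18 libraries. The columns of miR-126a-5p and miR-126b-3p are therefore treated as 1 measurement, whose strand cannot be told from the counts. The count of miR-126b-5p was between 0.429% and 0.841% of that of miR-126a-3p, the major arm.

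miR-126a-3p, the major arm and the endothelial miRNA of the set, was among the most abundant miRNAs of these libraries. Its mean level was 56524 CPM ± 11727 (SD, n = 18), and it ranked between 2 and 6 of all miRNAs in every library. It took 4.83% to 8.18% of all counts. In the naïve libraries, its lowest, median and highest levels were 36295, 53369 and 69391 CPM. The day 1 contralateral libraries held 51425, 57143 and 41974 CPM, and the day 1 injured libraries held 58723, 42612 and 70871 CPM. At day 7, the contralateral libraries held 79214, 60881 and 54330 CPM, and the injured libraries held 66233, 66310 and 56585 CPM. The naïve range covered every day 7 injured value, and the highest level of all was in a day 7 contralateral library.

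miR-126a-5p, its minor arm, was far lower, with a mean of 318 CPM ± 112 (SD, n = 18). Naïve libraries ran from 140 to 421 CPM with a median of 367 CPM. The day 7 injured libraries held 256, 333 and 423 CPM, and the day 7 contralateral libraries held 85.2, 317 and 472 CPM. The lowest value, 124 reads, came from contralateral replicate 1 of day 7, the library with the highest miR-126a-3p. There the major arm was 926 times the minor arm, against a median of 175 times over the 18 libraries.

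miR-143-3p, the major arm of the first smooth muscle hairpin, had a mean of 13432 CPM ± 3964 (SD, n = 18) and ranked between 10 and 27. Its lowest, median and highest naïve levels were 8136, 11914 and 18863 CPM. The day 1 contralateral libraries held 23555, 10841 and 9472 CPM, and the day 1 injured libraries held 13450, 7993 and 17053 CPM. At day 7, the contralateral libraries held 16015, 11658 and 16221 CPM, and the injured libraries held 12753, 12305 and 16132 CPM. All groups overlapped, and the widest spread was in the day 1 contralateral group, where replicate 1 was the highest of all. The passenger arm miR-143-5p was the lowest member, at 46.7 CPM ± 19.0 (SD, n = 18), and rested on 23 to 183 reads per library.

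miR-145a-5p, the major arm of the second smooth muscle hairpin, had a mean of 1567 CPM ± 413 (SD, n = 18). Naïve libraries held between 1481 and 2096 CPM, with a median of 1879 CPM. The day 1 contralateral libraries held 2210, 1365 and 1494 CPM, and the day 1 injured libraries held 1499, 1467 and 1303 CPM. At day 7, the contralateral libraries held 2311, 983 and 1137 CPM, and the injured libraries held 1482, 1215 and 863 CPM. The day 1 injured group and both groups of day 7 thus had 2 of 3 libraries under the lowest naïve library, and the day 1 contralateral group had 1, with the remaining libraries within or above the naïve range. The 3p arm, miR-145a-3p, had a mean of 411 CPM ± 168 (SD, n = 18) and ran from 171 CPM in a naïve library to 871 CPM in a day 1 injured library.

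**Figure D1:**
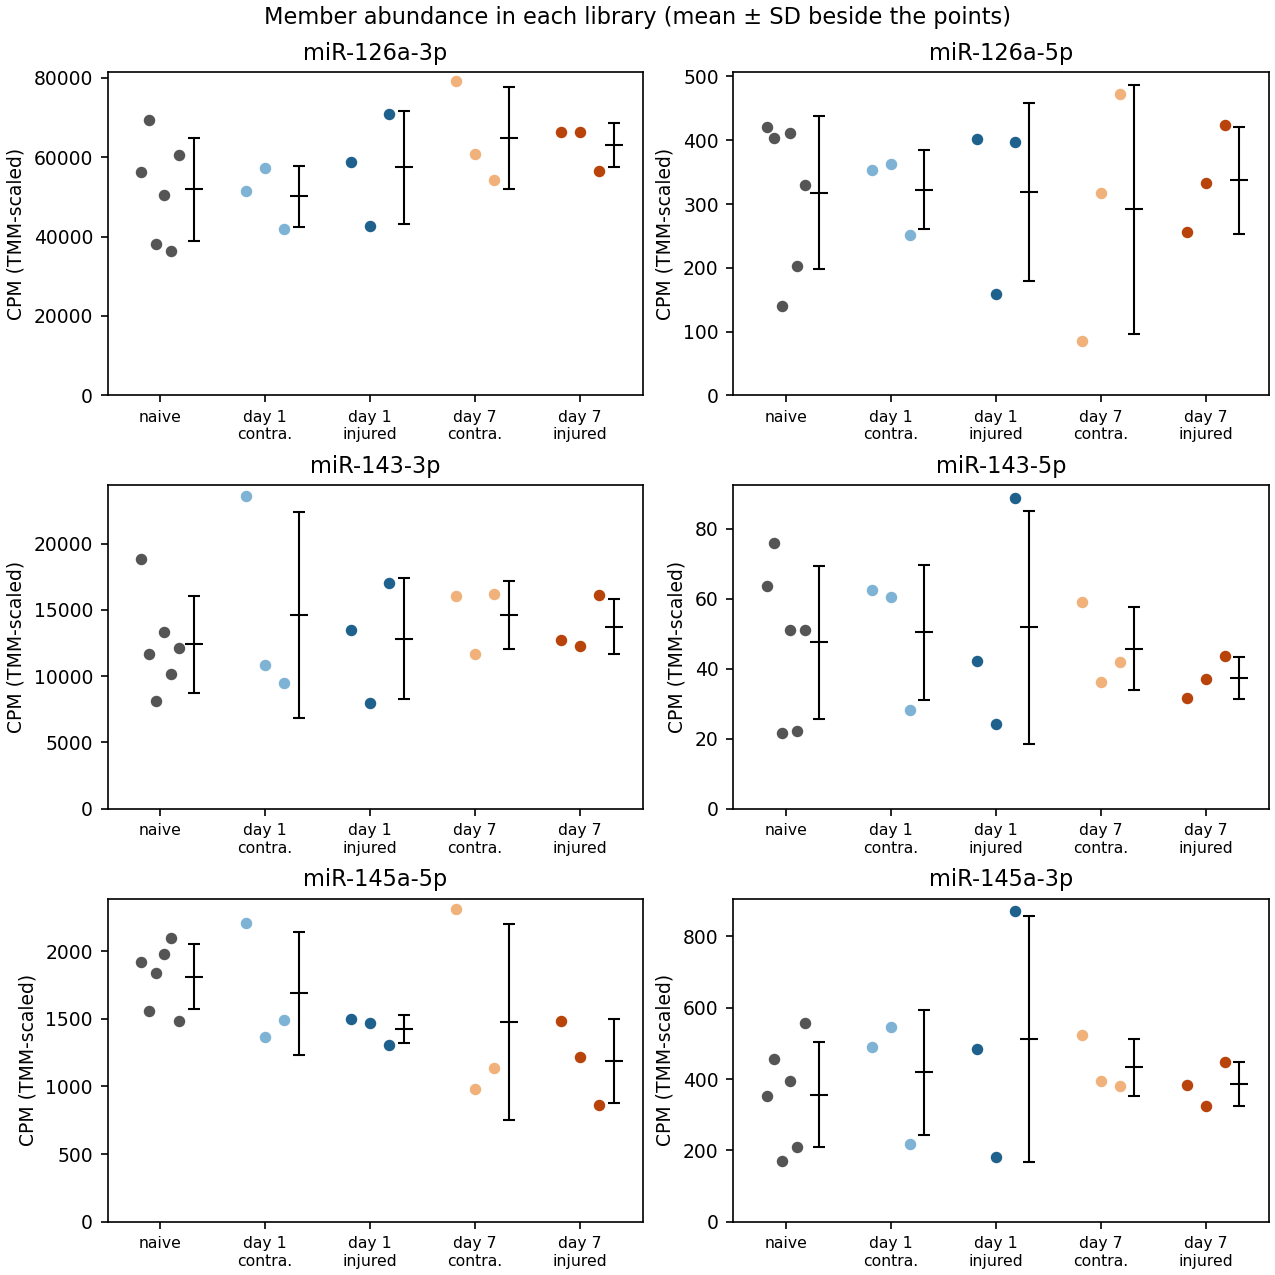
TMM-scaled CPM of each member (y axis, starting at 0) in each of the 18 libraries, by group, with the mean ± SD beside the points. The groups overlap for every member, and miR-145a-5p has its lowest library, at 863 CPM, in the day 7 injured group.

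The order of the members was nearly the same in every library. miR-126a-3p exceeded miR-143-3p in 18 of 18 libraries, by a median of 4.56-fold. miR-143-3p exceeded miR-145a-5p in 18 of 18, by a median of 8.4-fold, although one primary transcript is known to give both. miR-145a-5p exceeded miR-145a-3p in 18 of 18. The neighbours miR-145a-3p and miR-126a-5p did not separate, since the first was the higher in 13 libraries and the second in 5. miR-145a was the member hairpin whose 5p arm was the higher, while miR-126a and miR-143 had the higher 3p arm in all 18 libraries. Mature miRNAs are of nearly equal length, so CPM values were compared with no length correction, and how well each sequence was captured was not measured.

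In the GENCODE annotation of GRCm38, the Mir143 hairpin lies at chr18:61649196-61649258 and Mir145a at chr18:61647825-61647894, both on the minus strand and 1301 bases apart. Both positions fall within the RefSeq span of the noncoding gene Carmn (chr18:61645878-61665538, minus strand). The GENCODE model of Carmn (chr18:61649625-61665537) ends 366 bases before Mir143. The related miR-145b was at 0 to 4 reads in every library and was not tested.

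Whether injury changed the members was asked first at day 7 against naïve cartilage. With limma-voom, 78 of the 428 tested miRNAs passed an adjusted p of 0.05 (18.2%), and 0 of the 6 members did. Before adjustment, 1 member had a p under 0.05 there and 0 did in the other 8 comparisons. The quasi-likelihood test of edgeR and DESeq2 each called 0 members in all 9. The member at an unadjusted p under 0.05 was miR-145a-5p, at a log2 fold change of -0.65 ± 0.26 (SE; 95% interval -1.19 to -0.11), which is 1.57-fold lower. Its p from the limma-voom model was 0.0198 before and 0.0975 after Benjamini-Hochberg adjustment. Its adjusted p ran from 0.00934 to 0.557 over 30 alternative settings, and it passed the threshold under 3 of them. The naïve and day 7 injured ranges overlapped by 1 library on each side, at 1481 and 1482 CPM.

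The other members differed less from naïve cartilage at day 7. miR-126a-3p had a log2 fold change of 0.30 ± 0.21 (SE; 95% interval -0.14 to 0.75; adjusted p = 0.409). For miR-143-3p it was 0.19 ± 0.29 (SE; 95% interval -0.42 to 0.80; adjusted p = 0.735). The minor arms had wider intervals, with log2 fold changes of 0.17 for miR-126a-5p, -0.21 for miR-143-5p and 0.22 for miR-145a-3p. The intervals of miR-126a-3p and miR-143-3p lay within a log2 change of 1 in either direction, and those of the other 4 arms reached past it. The median log2 fold change was 0.18 over the 6 members and -0.00282 over all 428 tested miRNAs.

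Against the contralateral knees of day 7, 63 of 428 miRNAs passed (14.7%) and 0 members did, with 0 members at an unadjusted p under 0.05. miR-145a-5p was at -0.24 ± 0.29 (SE) on the log2 scale, and miR-126a-3p was at -0.02 ± 0.24 (SE). miR-143-3p was at -0.07 ± 0.33 (SE). The median over the members was -0.11, beside -0.05 over all tested miRNAs. Against naïve cartilage, the contralateral knees of day 7 themselves had log2 fold changes of -0.41 ± 0.25 (SE) for miR-145a-5p and 0.33 ± 0.21 (SE) for miR-126a-3p. In that comparison limma-voom and edgeR called 0% of all tested miRNAs and DESeq2 called 1, with 23 at an unadjusted limma-voom p under 0.05. These comparisons share libraries, so their values are given side by side and not as independent results.

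At day 1, limma-voom called 0 of 428 miRNAs in injured against naïve cartilage (0%) and 0 in injured against contralateral cartilage (0%), with 8 at an unadjusted p under 0.05 in each. edgeR and DESeq2 also called 0 there. In the first comparison, the log2 fold changes of the members ran from -0.34 for miR-145a-5p to 0.38 for miR-145a-3p. In the second, miR-145a-5p had the lowest, at -0.22, and miR-126a-3p the highest, at 0.18. In the contralateral knees of day 1 against naïve cartilage, limma-voom called 0% of miRNAs, with 4 at an unadjusted p under 0.05. It also called 0% in the contralateral knees of day 7 against those of day 1, with 25 at an unadjusted p under 0.05. edgeR called 0 in both, and DESeq2 called 0 and 2. From day 1 to day 7 in injured knees, 67 of 428 miRNAs passed (15.7%) and 0 members did, where miR-145a-5p was at -0.31 ± 0.30 (SE) and miR-126a-3p was at 0.15 ± 0.25 (SE). The change of the injury effect between the days passed in 29 miRNAs (6.78%) and in 0 members.

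**Figure D2:**
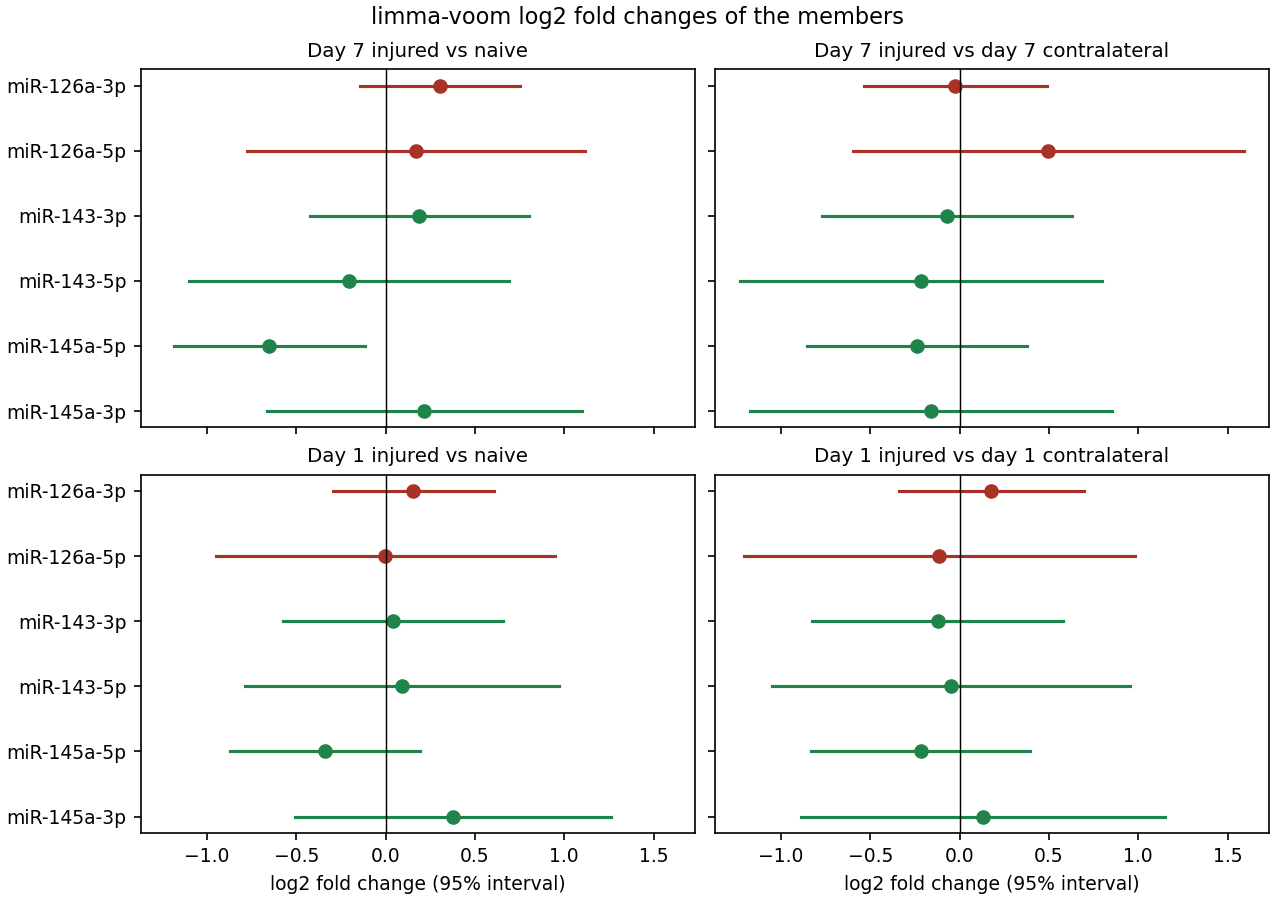
limma-voom log2 fold changes of the 6 members (points) with 95% intervals (lines) in 4 comparisons, with miR-126a in red and miR-143 and miR-145a in green. The interval of miR-145a-5p at day 7 injured against naïve, from -1.19 to -0.11, is the one of the 24 that leaves out 0.

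The endothelial and smooth muscle members were then compared inside each library, since a ratio of 2 counts does not depend on how libraries are scaled. The log2 ratio of miR-126a-3p to miR-143-3p was 2.08 ± 0.36 in the naïve group (SD, n = 6). After injury, at day 7, it was 2.21 ± 0.34 (SD, n = 3), a difference of 0.13 ± 0.25 (SE) with an exact permutation p = 0.595 (two-sided). These 2 major arms thus kept a similar ratio, between 2.98 and 5.95 in naïve and between 3.51 and 5.39 in day 7 injured libraries. The lowest of all, 2.18, was in the day 1 contralateral library with the highest miR-143-3p.

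The ratio of miR-126a-3p to miR-145a-5p was the one that separated day 7 injured from naïve libraries. miR-126a-3p was 44.7, 54.6 and 65.5 times miR-145a-5p in the day 7 injured libraries. In the naïve libraries the ratio was lowest at 17.3, with a median of 27.4 and a highest value of 44.5. All 3 injured libraries were thus above all 6 naïve libraries, by a narrow gap. Within the naïve group the ratio was higher in deeper libraries, from 17.3 at 864123 counts to 44.5 at 2450093 counts. The injured libraries at 44.7, 54.6 and 65.5 held 758388, 2226254 and 3189999 counts. The part of depth in this ratio was not tested. The log2 ratio differed by 0.95 ± 0.27 (SE), with an exact permutation p = 0.0238 (two-sided), which is the smallest that 6 against 3 libraries allow, and an adjusted p = 0.960 over the 48 ratio tests. That p counts the 6 naïve libraries as independent. The difference was 0.73 ± 0.33 (SE) in day 7 contralateral against naïve cartilage (exact permutation p = 0.0952), and 0.22 ± 0.29 (SE) between the knees of day 7 (exact permutation p = 0.60, where 0.10 is the smallest possible). Those contralateral libraries held ratios of 34.3, 61.9 and 47.8.

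The ratio of miR-145a-5p to miR-143-3p sets the products of neighbouring hairpins against each other. Its log2 value was -2.74 ± 0.45 for naïve libraries (SD, n = 6). For those of day 7 after injury it was -3.56 ± 0.59 (SD, n = 3). The difference was -0.82 ± 0.39 (SE), with an exact permutation p = 0.0476 (two-sided) and an adjusted p = 0.960. The injured and naïve ranges overlapped. Of the 48 ratio tests, 2 had an unadjusted p under 0.05 and 0 passed after adjustment. With 3 against 3 libraries no ratio could go below 0.10. For the adjusted threshold to be reached, 23 of the 24 tests of 6 against 3 libraries would have had to be at their smallest p, so the adjustment says little about any single ratio.

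**Figure D3:**
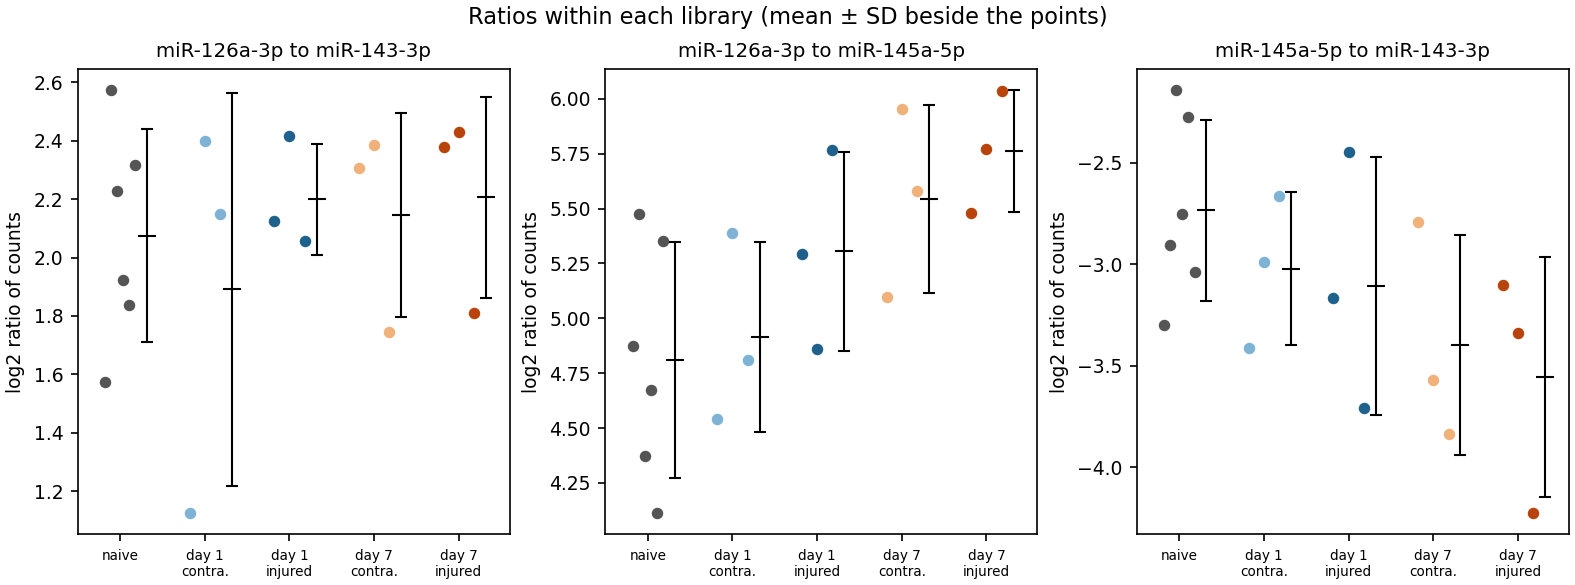
log2 ratios of the counts of 2 members within each of the 18 libraries (y axis, not starting at 0), by group, with the mean ± SD beside the points. The 3 day 7 injured libraries lie above all 6 naïve libraries for miR-126a-3p to miR-145a-5p, and the groups overlap in the other 2 panels. For miR-126a-3p to miR-145a-5p, naïve libraries with more counts had higher ratios.

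The 2 arms of a hairpin did not hold a fixed ratio between libraries. For miR-145a, the 5p arm was 1.5 to 10.8 times the 3p arm over the 18 libraries, with a median of 3.80. The widest groups were day 1 injured, at 1.5, 3.10 and 8.02, and naïve, between 2.66 and 10.8. For miR-143, the 3p arm was 153 to 449 times the 5p arm. For miR-126a, the 3p arm was 115 to 926 times the 5p arm, where the strand of the 5p reads cannot be told, as described above. Of the 24 exact permutation tests of arm ratios, 0 had a p under 0.05 before adjustment. Those of 3 against 3 libraries could not go below 0.10, so they could not have been counted. Among them, the log2 ratio of miR-143-5p to miR-143-3p was at that smallest exact permutation p in day 7 against day 1 injured libraries. It differed by -0.43 ± 0.26 (SE) there, and the 2 groups did not overlap.

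Members were next compared across libraries after removal of the group means, which asks what varies together among libraries of the same group. Of 33 correlations, 13 passed after adjustment by Pearson's r and 8 by Spearman's rho. None of the pairs among the 3 major arms was one of them. Pearson's r was 0.50 for miR-126a-3p with miR-143-3p (rho = 0.42; permutation p = 0.0753 and 0.137, adjusted 0.124 and 0.251, n = 18). It was 0.07 for miR-126a-3p with miR-145a-5p (rho = 0.01; permutation p = 0.797 and 0.969, adjusted 0.822 and 0.969). For miR-143-3p with miR-145a-5p it was 0.24 (rho = 0.23; permutation p = 0.351 and 0.394, adjusted 0.482 and 0.542).

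The minor arms miR-143-5p and miR-145a-3p varied with each other, and both varied with miR-126a-3p. miR-145a-3p followed miR-126a-3p with r = 0.86 (rho = 0.81; permutation p = 0.00050 and 0.00117, adjusted 0.0055 and 0.00998), and r was 0.82 without the 2 libraries farthest from the median. miR-143-5p followed miR-145a-3p with r = 0.91 (rho = 0.85; permutation p = 0.00080 and 0.00121, adjusted 0.00581 and 0.00998), and r was 0.89 without those 2 libraries. With library totals in place of TMM scaling, r fell to 0.27 for the first pair, which then no longer passed, and was 0.82 for the second. miR-143-5p followed miR-126a-3p with r = 0.89 (rho = 0.84, permutation p = 0.00044 and 0.00111, adjusted 0.0055 and 0.00998). That r was 0.84 without 2 libraries and 0.51 with library totals, where it no longer passed. The arms of miR-143 had r = 0.74 (rho = 0.74; permutation p = 0.00768 and 0.00554, adjusted 0.0286 and 0.0231), which was 0.71 without 2 libraries and 0.47 with library totals, where it no longer passed. The arms of miR-126a had r = 0.29 (rho = 0.27; permutation p = 0.317 and 0.375, adjusted 0.455 and 0.539), which was -0.47 with library totals. For the arms of miR-145a r was -0.09 (rho = -0.10; permutation p = 0.648 and 0.686, adjusted 0.758 and 0.809). Knees of the same mice may not be independent, and 2 scaled values of a library share its scaling factor.

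Among miRNAs of other cells, miR-451a, which is made in red blood cells and their precursors, followed miR-126a-3p most closely of the 4 compared. Its r was 0.91 (rho = 0.92; permutation p = 5.0e-05 for each, adjusted 0.00165 for each, n = 18), and r was 0.89 without 2 libraries. With library totals r was 0.80 and no longer passed after adjustment (0.0706). Of the 5 erythroid miRNAs listed, miR-451a alone was correlated with members. The highest of the 5 was miR-486a-5p, with a mean of 4603 CPM beside 1452 CPM for miR-451a. In the naïve and day 1 groups, the sum of the 5 was highest in libraries low in miR-126a-3p. These were naïve replicate 3 (sum 8502, miR-126a-3p 38105 CPM), day 1 injured replicate 2 (9976, 42612) and day 1 contralateral replicate 3 (8664, 41974). In both day 7 groups, the library with the lowest sum also had the lowest miR-126a-3p. The muscle miRNA miR-1a-3p had r = 0.82 with miR-126a-3p (rho = 0.73; permutation p = 0.00088 and 0.00535, adjusted 0.00581 and 0.0231), r = 0.77 without 2 libraries, and r = 0.34 with library totals. The leukocyte miRNA miR-142a-3p had r = 0.68 with miR-126a-3p (rho = 0.65; permutation p = 0.0117 and 0.0163, adjusted 0.033 and 0.0572), which did not pass without 2 libraries or with library totals. With miR-143-3p it had r = 0.64 (rho = 0.70; permutation p = 0.00601 and 0.00559, adjusted 0.0283 and 0.0231), and r = 0.66 without 2 libraries, and it did not pass with library totals (r = 0.53). miR-1a-3p had r = 0.65 with miR-143-3p (rho = 0.60; permutation p = 0.0132 and 0.0255, adjusted 0.0336 and 0.0765), r = 0.78 without 2 libraries, and r = 0.33 with library totals. The cartilage miRNA miR-140-3p had r = -0.17 with miR-126a-3p (rho = -0.04; permutation p = 0.554 and 0.887, adjusted 0.703 and 0.915). With miR-145a-5p, all 4 had an r between 0.09 and 0.34, with adjusted permutation p-values from 0.424 to 0.799. The part of blood or muscle RNA in the levels of miR-126a-3p was not tested.

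Depth moved with 4 of the 6 members. miR-145a-5p was lower in deeper libraries, with r = -0.67 against the log2 library total (rho = -0.71; permutation p = 0.0120 and 0.00561, adjusted 0.0330 and 0.0231, n = 18). Without 2 libraries r was -0.60 and no longer passed after adjustment (0.0976), and with library totals r was -0.84 and passed (0.0132). miR-126a-5p was higher in deeper libraries, with r = 0.72 (rho = 0.58; permutation p = 0.0020 and 0.0173, adjusted 0.011 and 0.0572), and r was 0.74 without 2 libraries, while with library totals r was 0.58 and no longer passed (0.130). The arms miR-143-5p and miR-145a-3p, described above as varying together, were also higher in deeper libraries. miR-143-5p had r = 0.62 with depth (rho = 0.48; permutation p = 0.0078 and 0.0497, adjusted 0.0286 and 0.109). For miR-145a-3p r was 0.61 (rho = 0.54; permutation p = 0.00962 and 0.0304, adjusted 0.0318 and 0.0772). Neither passed without 2 libraries (r = 0.56 and 0.53) or with library totals (r = 0.49 and 0.52). With the library total as a covariate, miR-145a-5p was at -0.59 (log2) in day 7 injured against naïve cartilage (adjusted p = 0.0562, limma-voom). The log2 ratio of miR-126a-3p to miR-145a-5p differed by 0.95 there when the 3 libraries under 1000000 counts were left out. The injured libraries that remained held 2226254 and 3189999 counts, and the naïve ones 1284839 to 2450093. That setting thus did not match the groups for depth and says little about its part in the ratio. The part of depth in the result on miR-145a-5p was not tested further.

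**Figure D4:**
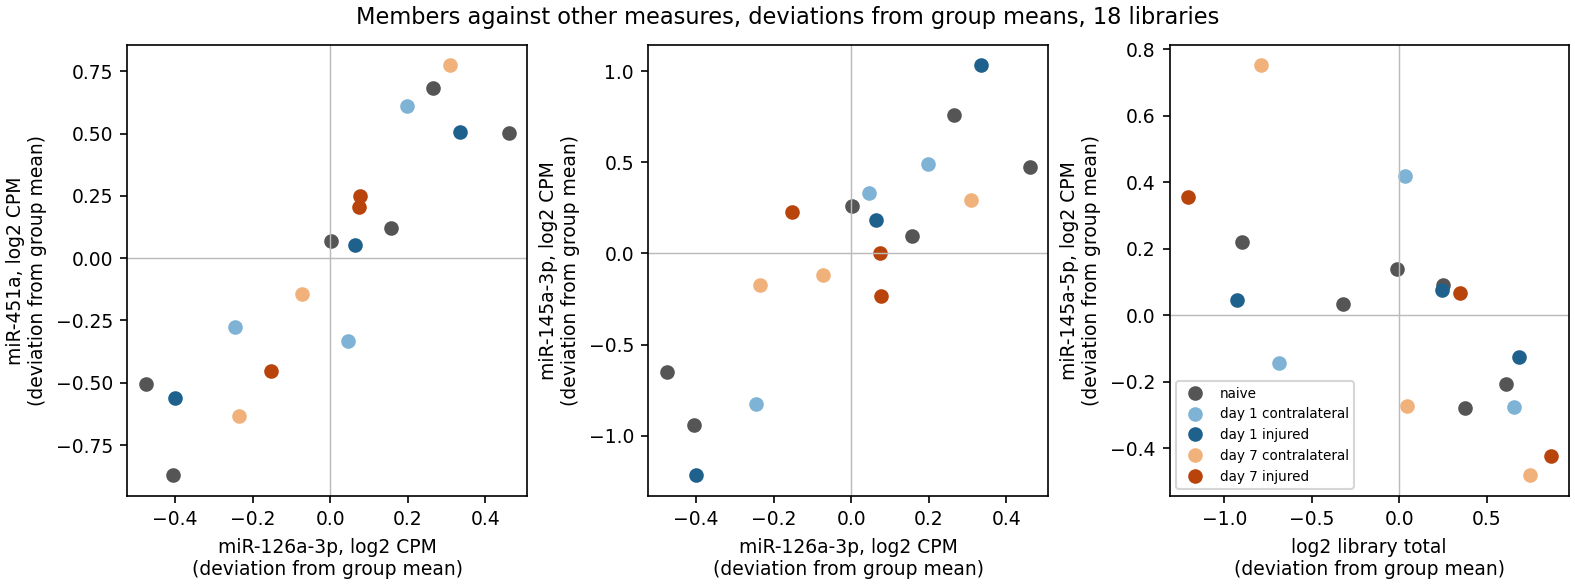
Deviations from the group means over the 18 libraries, coloured by group: miR-451a against miR-126a-3p (log2 CPM), miR-145a-3p against miR-126a-3p (log2 CPM), and miR-145a-5p (log2 CPM) against the log2 library total. The first 2 panels rise, with r = 0.91 and r = 0.86, and the third falls, with r = -0.67.

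The miRNAs with the pattern most like each major arm were taken from 327 candidates (mean level of 10 CPM or more), by Spearman's rho over the 18 libraries and with no p. Nearest to miR-126a-3p were miR-376b-5p (rho = 0.92), miR-3081-3p (0.85), miR-136-5p (0.82), miR-196b-5p (0.77) and miR-451a (0.75). For miR-143-3p they were miR-9-5p (rho = 0.79), let-7f-5p (0.75), miR-101a-3p (0.73), miR-135a-5p (0.72) and miR-10b-5p (0.70). For miR-145a-5p they were miR-204-5p (rho = 0.77), miR-181c-5p (0.66), miR-193b-3p (0.65), miR-3535 (0.65) and miR-146b-5p (0.62). The 3 lists share 0 miRNAs. From miR-126a-3p, miR-143-3p stood in place 68 (rho = 0.36) and miR-145a-5p in place 233 (rho = -0.24).

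Other miRNAs of vessels and stroma, on lists written with earlier results known, give a frame for the members. Of 9 other miRNAs linked to endothelial cells and vessel growth, such as miR-221-3p and miR-92a-3p, 0 passed with limma-voom in day 7 injured against naïve cartilage (background 18.2%), and their median log2 fold change was -0.12. In the naïve and both day 1 groups, the library with the highest sum of these 9 had the lowest miR-126a-3p (3074 and 36295 CPM in naïve replicate 5). In both day 7 groups, the library with the lowest sum had the lowest miR-126a-3p. No correlation with this list was computed. Of 9 other miRNAs of smooth muscle and stroma, 6 were tested and 5 passed, all higher at day 7 after injury. The 5 are miR-21a-5p and both arms of miR-199a and miR-214. The study describes miR-199a and miR-214 as a cluster, so these are not 5 independent results. It had also reported miR-199a and miR-21a-5p as higher in these data. The median log2 fold change of the 6 tested was 1.19, with a range of 0.83 to 1.85. The summed level of that list was 79151 to 101223 CPM in the day 7 injured and 27485 to 45019 CPM in the naïve libraries. The 6 tested are arms of miR-199a, miR-199b and miR-214 and miR-21a-5p, which are known from fibroblasts and other mesenchymal cells, while miR-145b and both arms of miR-490, which are known from smooth muscle, were near 0 and not tested. None of the 4 arms of miR-143 and miR-145a passed in that comparison. In the same comparison, all 7 tested muscle miRNAs had negative log2 fold changes (median -0.53) and 0 passed. Of 5 erythroid miRNAs, 2 passed as lower, and these are the 2 arms of miR-486a (log2 fold changes of -1.22 and -1.10). miR-451a was at -0.25 (adjusted p = 0.723, limma-voom). The part of muscle or blood RNA in the levels of the members was not tested.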

How the data were processed

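Small RNA libraries were made with the NEBNext kit from pooled femoral condyle cartilage. Per the study's methods and the submitters' processing notes, the authors trimmed reads (Trim Galore 0.6.6), aligned them to mature miRNA sequences with Bowtie 1.3.0 and counted them with SAMtools 1.12. The deposited values are raw counts per mature miRNA, with no normalisation. Neither the use of strand nor the handling of reads that match several sequences is given in the sources used here. Each row was assigned to the sample whose title holds the same library number, which no further identifier checks. Groups came from the treatment label, and replicates, numbered in accession order, pair nothing. The labels name no batch and no shared pools, so libraries were treated as independent, and p-values measure the spread between these libraries only.

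Counts were filtered with filterByExpr of edgeR 4.0.16 (minimum count 10, minimum total 15) and scaled by TMM, and limma 3.58.1 (voom) was fitted in R 4.3.3 to all 18 libraries with 1 mean per group. This follows the study's choice of test, without its term for shared pools. The 9 contrasts were adjusted separately over 428 miRNAs by the Benjamini-Hochberg method at 0.05. Ratios of counts used a pseudocount of 0.5, exact permutation tests and adjustment over 48 tests. Correlations used log2 CPM (prior count 2), with 100000 permutations within groups, two-sided, adjusted over 33 pairs, of which the 6 with depth were added after seeing the data. The limma-voom fit was tested on simulated data, for day 7 injured against naïve libraries and with changes larger than those of the members. The ratio and correlation tests were not covered. DESeq2 1.42.0 was one of the alternatives. Positions came from the GENCODE vM21 and RefSeq annotations of GRCm38, and mature sequences from RefSeq for the miRNAs shown. Named miRNAs are the members, their relatives by locus, the 5 miRNAs most like each major arm, and miRNAs of the context lists (muscle, erythroid, leukocyte, cartilage, endothelial and stromal) where they are compared with members. The members and lists were chosen with earlier results of these data known. The precision of low members is set by depth (23 reads at the least), and PCR copies are not independent molecules. Python 3.11.15, scipy 1.17.1 and matplotlib 3.10.9 were used.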

Additional observations from a re-analysis of the deposited data

How the results depend on the processing

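Each of the 6 members was refitted in 9 comparisons under 30 alternatives, 2 of which (depth as a covariate, and leaving out the 3 libraries under 1000000 counts) were added after seeing the data. In day 7 injured against naïve cartilage the number of members called was 0 as reported and 1 under each of 3 planned settings. With voomWithQualityWeights it was miR-145a-5p (-0.61, adjusted p = 0.00934), with only the 2 groups compared it was miR-145a-5p (-0.64, adjusted p = 0.0262), and with the muscle miRNA level as a covariate it was miR-126a-3p (0.45, adjusted p = 0.0327), all by limma. Leaving out each library gave 0 to 1 calls, the 1 being miR-145a-5p without day 7 contralateral replicate 1 (-0.62, adjusted p = 0.0290). No member was called in the other 8 comparisons under any alternative. Values that passed no threshold changed sign in 196 of 1620 refits. In day 7 injured against naïve cartilage, miR-126a-3p, miR-143-3p and miR-145a-5p kept their sign throughout. The log2 ratio of miR-126a-3p to miR-145a-5p differed by 0.79 to 1.09 over 21 alternatives, with no adjusted p under 0.05, and that of miR-126a-3p to miR-143-3p by -0.00258 to 0.33. With library totals in place of TMM, 11 of the 13 correlations that passed by Pearson's r no longer did, and without the 2 farthest libraries 4 no longer did and 4 others passed. Of the 5 miRNAs most like each major arm, 1 (miR-126a-3p), 1 (miR-143-3p) and 4 (miR-145a-5p) stayed with library totals. No paired analysis was possible because the replicate numbers were given in accession order.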
